A study of Arabidopsis thaliana with 8 samples.

Results

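The rosettes labelled 12h are set here against those labelled 00h in the pgm mutant of Arabidopsis thaliana, through 4 of the 8 arrays of the series. The 4 were chosen by their labels: 12h A and 12h B on one side, 00h A and 00h B on the other, the only hours with 2 arrays each. The hours 04h, 08h, 16h and 20h have 1 array each and serve below as single values. Every array carries the pgm mutation in the Col-0 background, and a wild type is not analysed here, so no value below separates the effect of the mutation. The plants were 5 to 6 weeks old. For each sample 5 lots of 3 full rosettes were frozen in the growth chamber, the 15 rosettes were ground together, RNA came from 250 mg of fresh weight, and about 10 µg of it was turned into biotinylated cRNA. When lights went on or off is not given in the labels, and neither is whether the A and B arrays stem from separate sets of plants.

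The pgm mutant lacks the plastidial phosphoglucomutase, the step that leads from the Calvin-Benson cycle to glucose 1-phosphate and so to starch, and its leaves hold almost no starch. In wild-type leaves starch built in the light feeds respiration and growth in the dark. Leaves without this store are known to pile up sugars in the light and to run short of carbon in the dark, when plants can turn to amino acids, proteins and lipids as fuel. The groups below therefore run from breakdown of such reserves, over nitrogen, sulfur and carbon metabolism, to the making of RNA, protein, cell walls and organelles.

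Values are deposited intensities on a linear scale, 1 per probe set and array, given as A and then B. Differences are 12h minus 00h of log2(intensity + 16), with the standard error (SE) of limma's fit and its Benjamini-Hochberg adjusted p over all 13647 probe sets tested. A gene is said to have risen or fallen where this adjusted p is under 0.05. Of the probe sets tested, 5528 passed (40.5%), 2992 of them higher at 12h (21.9%) and 2536 lower (18.6%). All 5528 had the same sign in 12h A minus 00h A as in 12h B minus 00h B, while 82.7% of all tested probe sets did (44.3% above 0). The call rests on the same arrays and is hard to reach where these differences disagree, so its agreement of sign gives no separate support. With each array scaled to 1 median, which shifts the median difference by -0.17, 42.3% of the calls were higher at 12h, against 54.1% with the values as deposited. The median difference over all tested probe sets was 0.06. Differences of dim genes depend on the 16 that is added, so intensities are given beside them. The naming rule given with the processing picks 240 named genes that passed, not all of which are described in the text. Of these 240, 83 moved by over 1.5 times when 64 was added. Among genes named below, the calls of ACLB-1, bHLH115, CRR22, GLR1.4, GTR2, HEME2, MMT, nad4 and POLD3 ended with each array scaled to 1 median.

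The functional groups are 68 lists of genes by name. They hold 952 genes with a probe set of their own, 626 of which lay above the filter on dim probe sets and were tested. Of these, 170 rose and 110 fell at 12h, 44.7% in all, while 39.5% of all 7271 tested genes named by the table passed (20.9% higher, 18.6% lower). The lists were chosen with earlier results of these data known, so the larger share among members is not a result about them. The 2 pairs of arrays had one sign for 530 of the 626 members (84.7%), among them 250 of the 346 that did not pass. The 12h and 00h arrays did not overlap for 454 members, 256 with 12h above and 198 with 12h below, against 71.0% of all tested probe sets (38.1% above, 32.9% below). The median of a list had one sign in both pairs for 58 of the 68 lists, above 0 in 32 and below 0 in 26. Where a group is said below to have no member in one direction, limma also gave 0 there at unadjusted p under 0.05, except 2 plastid photosynthesis genes (lower) and 1 nuclear photosystem gene (higher). With no filter, when p-values were adjusted over all 22746 probe sets, 221 members passed in place of 280. The counts of several lists then moved by over 1.5 times. DNA replication and repair genes had 4 higher members in place of 2. Higher members numbered 2 in place of 4 among sugar transporters, 3 in place of 7 among plastid photosynthesis genes, 5 in place of 9 in rRNA and tRNA processing, 6 in place of 10 among chaperones, 3 in place of 5 among IQD genes and 2 in place of 4 among expansins. Lower members numbered 1 in place of 3 among bZIP factors, and 1 in place of 4 among jasmonate genes, of which 2 were then higher. Splicing genes had 1 higher and 1 lower in place of 3 each, and citric acid cycle genes had 0 in place of 2 higher and 1 lower. Of the genes under the naming rule, those given in this text whose calls ended in this way were ACLB-1, AUR1, cICDH, CRR22, CYP71B5, CYP71B24, DELTA-OAT, DIM1B, EXPA8, GH3.3, GID1C, GLR1.4, GTR2, LIL3:2, LTI30, nad4, PDF1.2, PDF1.2b, POLD3, PSB27, PUB23, SAMDC, SRC2, STOMAGEN, TMT2, TRM15 and U2AF35B.

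The plot of both pairs shows the members along the diagonal, with a few far from it.

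**Figure D1:**
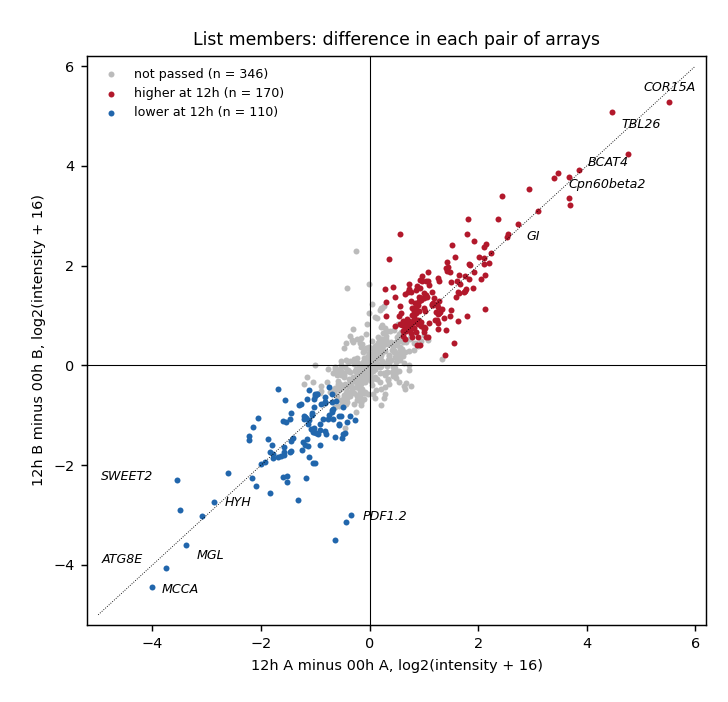
Each point is 1 tested member of the functional groups: the horizontal axis gives 12h A minus 00h A and the vertical axis 12h B minus 00h B, both as differences of log2(intensity + 16), and the dotted line marks equal values. The 170 members called higher and the 110 called lower lie in the quadrants where both differences have one sign, which the call itself favours. PDF1.2 and 2 points near it fell mainly in the B pair.

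The arrays of one hour were alike (r = 0.96 between 12h A and 12h B and 0.97 between 00h A and 00h B, across the tested probe sets), and r was between 0.72 and 0.77 across the hours. Hybridisation controls were high on 12h A and 00h A and low on the other arrays, so each difference between arrays of one letter is also a difference within one such class. Actin 3′ over 5′ signal, which rises as RNA is shortened, was 3.11 and 3.19 at 12h, against 2.69 and 2.74 at 00h. The same ratio of GAPDH overlapped between the hours, with 1.18 and 0.94 at 12h, against 1.08 and 0.92 at 00h. The part of RNA length in the differences was not tested. The tissue label was checked on marker genes. RCA, Rubisco activase of green tissue, had 2898 and 2299.9 at 12h, against 6704 and 2976 at 00h. PYK10, best known from roots, read 120.2 and 127 at 12h, against 300.0 and 272 at 00h, and LBD16 of roots lay below the filter. RCA did not pass the test, PYK10 fell, and the part of either in the results was not tested. In whole rosettes fewer cells of a type and less RNA per cell cannot be told apart.

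Genes for the breakdown of branched-chain amino acids and lysine were lower at 12h. All 9 listed genes were tested, 6 fell, 3 did not pass and the median difference was -1.19. IVD, isovaleryl-CoA dehydrogenase of leucine breakdown, had 35.2 and 67.1 at 12h, against 422 and 657 at 00h (-3.06 ± 0.29 (SE), limma adjusted p = 3.07e-05). AT4G33150, listed as LKR/SDH and known to open lysine breakdown, had 41 and 37.9 at 12h, against 189 and 300.0 at 00h. ETFQO, which passes electrons of these pathways to ubiquinone, had 47.1 and 40.5 at 12h, against 176 and 252 at 00h. In each of the 3 genes both 12h arrays lay far below both 00h arrays. The 2 subunits of methylcrotonyl-CoA carboxylase differed in size of change, with -4.23 ± 0.25 (SE) for MCCA and -0.77 ± 0.21 (SE) for MCCB, a difference that was not tested. ETFALPHA (-0.33 ± 0.22) and ETFBETA (0.17 ± 0.24), both parts of the electron carrier that hands over to ETFQO, did not pass.

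Among 8 genes that release nitrogen or sulfur from stored compounds, 3 fell and none rose at 12h. MGL, methionine gamma-lyase, had 52.8 and 54.8 at 12h, against 704 and 839.9 at 00h (-3.49 ± 0.21 (SE), limma adjusted p = 1.99e-06). AAH, allantoate amidohydrolase of purine breakdown, had 20.4 and 32 at 12h, against 155 and 112 at 00h. The call of the third, DELTA-OAT of ornithine breakdown (-0.90 ± 0.27), ended without 00h B (limma adjusted p = 0.224). ALN, a step before AAH in the same pathway, was at -0.63 ± 0.23 and did not pass. The other 4, among them URE (urease, 0.10 ± 0.25), lay between -0.46 ± 0.22 and 0.22 ± 0.26.

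Genes of self-digestion were also lower at 12h, and the ATG8 family moved unevenly. ATG8 proteins coat the autophagosome membrane. Of 11 tested autophagy genes 8 fell, with a median of -0.93, and 5 did so without 12h B. ATG8F had 704 and 488 at 12h, against 2317 and 1789.7 at 00h (-1.77 ± 0.28 (SE)). ATG8C had 157 and 145 at 12h, against 328 and 394 at 00h, and neither gene overlapped between the hours. ATG8D (-0.15 ± 0.25), ATG8G (-0.16 ± 0.23) and ATG3 (-0.29 ± 0.23), the enzyme that joins ATG8 to lipid, did not pass. GAMMA-VPE, a vacuolar processing protease, fell (-1.09 ± 0.24), with 599 and 463 at 12h, against 1062 and 1232 at 00h. Its relative BETA-VPE rose, with 49.4 and 57.6 at 12h, against 20.7 and 15.1 at 00h, so these 2 proteases took opposite directions on both pairs of arrays.

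Serine carboxypeptidase-like proteins, a family of vacuolar and secreted proteases and acyltransferases, ran mostly the other way. Of 15 tested members of 29 listed, 6 rose and 1 fell, with a median of 0.47 over those tested and 0.21 over all 29. Of those that rose, scpl35 differed most and had 816 and 538 at 12h, against 80.8 and 49.2 at 00h (3.1 ± 0.27 (SE), limma adjusted p = 1.82e-05). SCPL49 had 689 and 855 at 12h, against 303 and 360.5 at 00h. The one that fell, scpl31, was dim throughout, with 19.3 and 10.3 at 12h, against 52 and 52.4 at 00h.

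The ubiquitin system marks proteins for breakdown. Of 10 tested ubiquitin-conjugating enzymes 5 fell and 2 rose, with 3 lower without 00h B. UBC28 had 1182 and 728 at 12h, against 3571 and 2283 at 00h (-1.60 ± 0.33 (SE), limma adjusted p = 0.00329). UBC19 had 204 and 249 at 12h, against 479 and 530.2 at 00h. UBC20 was at 0.85 ± 0.22 and its call ended without 00h B (limma adjusted p = 0.062). Of 12 ubiquitin-specific proteases, which remove ubiquitin, 3 rose and none fell, a share of higher calls near that of all named genes. UBP21 had 62.2 and 68.7 at 12h, against 6.0 and 9.6 at 00h, and UBP23 had 1.47 ± 0.30 (SE). Membrane proteins with ubiquitin take another path. ESCRT proteins, which sort them into the vacuole, had 2 that fell and 1 that rose among 12. This share of calls lay under the 39.5% of all named genes. ELC, the ubiquitin-binding ESCRT-I subunit, had 76.7 and 96.8 at 12h, against 237 and 354 at 00h. VPS60.1 was at -1.47 ± 0.25 and VPS2.2 at 1.55 ± 0.25.

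Genes of glucosinolates, the sulfur-rich defence compounds of this plant family, rose together. All 6 tested members of 8 listed were higher at 12h, and the median was 1.85 over these 6 and 1.27 over all 8 with no filter. GSTU20, a glutathione transferase tied to this pathway, had 2026 and 1843 at 12h, against 177 and 122 at 00h (3.58 ± 0.25 (SE), limma adjusted p = 4.42e-06). UGT74B1, which glucosylates thiohydroximates, had 550.3 and 607 at 12h, against 133 and 94.2 at 00h. Neither gene overlapped between the hours. GTR1, an importer of glucosinolates, had 251 and 317 at 12h, against 94.5 and 87.5 at 00h. Its relative GTR2 was at 0.80 ± 0.27, a call that ended without 12h A (limma adjusted p = 0.231) and without 00h A (0.155).

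Sulfur assimilation, which feeds this pathway, gave 3 members that rose and 2 that fell among 8. APS3, an ATP sulfurylase at the entry of sulfate, had 322 and 229 at 12h, against 65.4 and 58.3 at 00h, and SIR, sulfite reductase, had 941 and 984 at 12h, against 514 and 466 at 00h. Both were higher on each 12h array than on either 00h array. APS4, another ATP sulfurylase, did not pass (0.10 ± 0.29). OASA2, named as a cysteine synthase isoform, had 23 and 25.5 at 12h, against 73.2 and 109 at 00h. SAMDC, S-adenosylmethionine decarboxylase of polyamine synthesis, was bright at both hours with 2392 and 2020.1 at 12h, against 5929 and 3500.5 at 00h. Its call ended without 12h A, 12h B or 00h A (limma adjusted p between 0.15 and 0.308). MMT (0.67 ± 0.20) lost its call without any one of the 4 arrays (limma adjusted p between 0.0512 and 0.104).

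GTR1 and GTR2 belong to the NPF family of nitrate and peptide transporters, whose 7 tested members all passed, 5 higher and 2 lower. Another 5 listed lay below the filter, and the median over all 12 was 0.33, against 0.88 over the 7. AT1G68570, listed as NPF3.1, had 528 and 441 at 12h, against 177 and 195 at 00h. AT3G21670, listed as NPF6.4, had 183 and 219.7 at 12h, against 862 and 541 at 00h (-1.69 ± 0.25 (SE)). AT2G26690, listed as NPF6.2, had 208 and 156 at 12h, against 509 and 485 at 00h. Both that fell are named as NPF6 members, and the 4 arrays of each did not overlap between the hours.

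**Figure D2:**
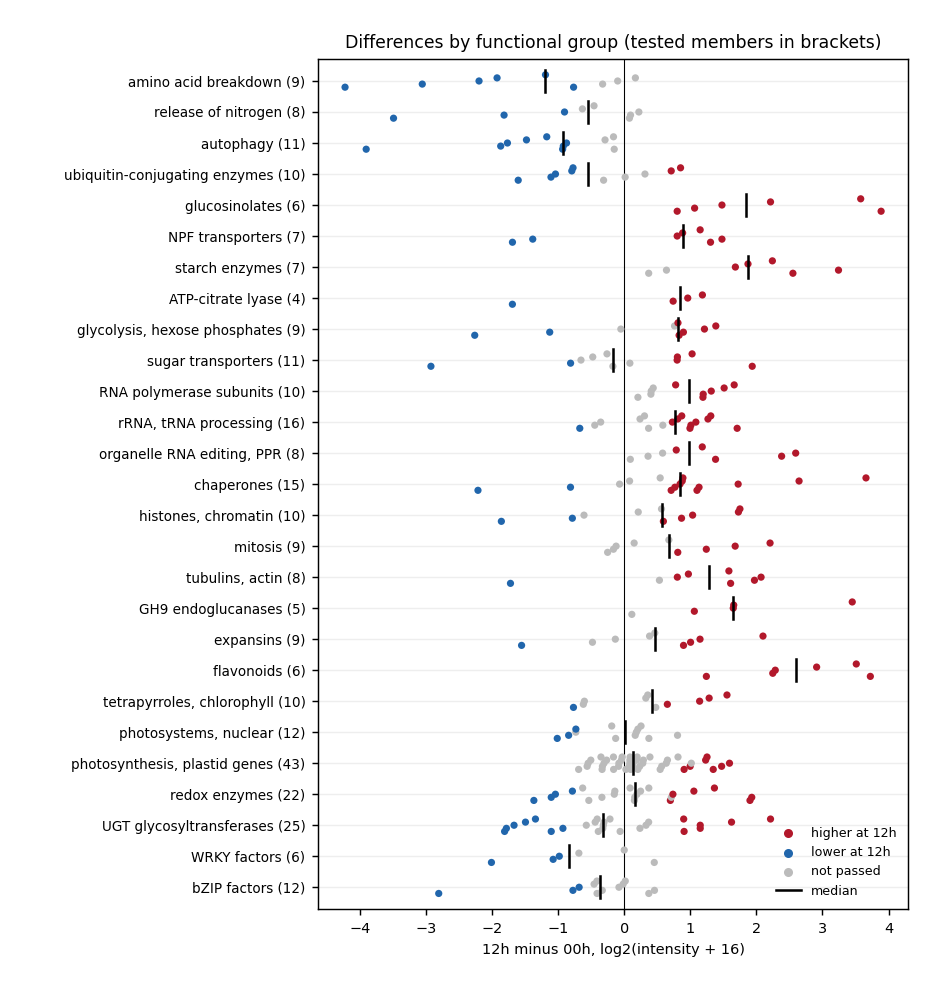
Each row is 1 functional group with the number of tested members in brackets, and each point is a member's 12h minus 00h difference of log2(intensity + 16), with the median as a bar. Glucosinolate, GH9 and flavonoid members that passed lie right of 0, those of amino acid breakdown and autophagy left of it, and ubiquitin-conjugating enzymes, redox enzymes and UGT glycosyltransferases hold both kinds.

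In central carbon metabolism single enzymes moved in opposite directions. ATP-citrate lyase cleaves citrate in the cytosol to acetyl-CoA for lipids and flavonoids, and its subunit genes split. ACLA-3 had 206 and 278 at 12h, against 755 and 869 at 00h (-1.69 ± 0.23 (SE), limma adjusted p = 0.000269). ACLA-2, a gene for the same subunit, had 129.5 and 154 at 12h, against 43.4 and 65 at 00h (1.18 ± 0.25 (SE)). ACLA-1 (0.96 ± 0.23) and ACLB-1 (0.74 ± 0.25) were also higher, and both calls ended without 12h B (limma adjusted p = 0.052 and 0.214), that of ACLB-1 also without 00h A (0.176). PPDK, pyruvate orthophosphate dikinase, which makes phosphoenolpyruvate and takes part in amino acid recycling, had 219.7 and 229.9 at 12h, against 996 and 1304 at 00h. Its 12h arrays lay close together and far below those of 00h. F2KP, which sets the signal metabolite fructose 2,6-bisphosphate, had 411 and 473 at 12h, against 1247 and 773 at 00h. Of the 9 tested genes of glycolysis and hexose phosphates 5 rose, 3 without 00h A, and these included MDH, a malate dehydrogenase (1.39 ± 0.24), PDC2, pyruvate decarboxylase (1.21 ± 0.22), and USP, UDP-sugar pyrophosphorylase (0.90 ± 0.21). GAPC2 (-0.05 ± 0.38) did not pass.

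Of 9 tested genes of the citric acid cycle and isocitrate dehydrogenases 2 rose and 1 fell, but with each array scaled to 1 median 0 rose and 2 fell. The one that fell, cICDH of the cytosol, was at -1.27 ± 0.32, and its call ended without 12h B (limma adjusted p = 0.0727) and without 00h A (0.0602). Of 6 tested nuclear genes of mitochondrial electron transport 0 passed limma's adjusted test and 0 reached an unadjusted p under 0.05, and their differences lay between -0.41 ± 0.24 (CYTC-2) and 0.17 ± 0.27 (CYTC-1). Lipid breakdown had 4 tested members, 2 of which fell and 1 rose. SDP1, the lipase that starts the use of stored oil, had 25.1 and 36.2 at 12h, against 106 and 165 at 00h. PAHX, phytanoyl-CoA hydroxylase, known for the chlorophyll side chain, had 332 and 272 at 12h, against 692 and 670.1 at 00h. Both fell on each pair of arrays. ACS, acetyl-CoA synthetase, had 581 and 399.8 at 12h, against 178 and 208 at 00h.

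All 7 listed genes of starch synthesis and breakdown had differences above 0 in this mutant, and 5 passed. DPE1, the disproportionating enzyme, had 374 and 389 at 12h, against 51.7 and 51.7 at 00h, and AT5G26570, of phosphoglucan water dikinase, had 686 and 843 at 12h, against 147 and 149 at 00h. Another locus under the same symbol, AT4G24450, was at 0.37 ± 0.28 and AMY1, an amylase, at 0.64 ± 0.28, and neither passed. Sugar transporters, 11 tested of 21 listed, had 4 that rose and 2 that fell, with a median of -0.17 over the 11 and 0.03 over all 21. SWEET13, of the sucrose-exporting branch, had 89.4 and 88.8 at 12h, against 13.1 and 9.9 at 00h (1.94 ± 0.23 (SE), limma adjusted p = 0.000114). SWEET2, a glucose carrier of the vacuole, had 36.8 and 33.5 at 12h, against 600.2 and 229 at 00h (-2.93 ± 0.36 (SE)). Its 00h arrays lay far apart, and both were above both 12h arrays. TMT2, an importer of sugars into the vacuole, was at 1.03 ± 0.27, a call that ended without 12h B (limma adjusted p = 0.0804), while TMT1 was at -0.65 ± 0.32 and SWEET11, of phloem loading, at -0.48 ± 0.31, and these did not pass.

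Genes that build the machinery of gene expression were called higher more often than lower, apart from splicing. Subunits of the nuclear RNA polymerases gave 6 that rose and none that fell among 10 tested, with a median of 0.98. NRPA2, the second largest subunit of polymerase I, which makes ribosomal RNA, had 183 and 195 at 12h, against 57.6 and 40.6 at 00h (1.66 ± 0.23 (SE), limma adjusted p = 0.000309). NRPC2, its counterpart in polymerase III, which makes tRNA, had 66 and 82.4 at 12h, against 18.1 and 13.1 at 00h, and NRPB7 of polymerase II had 104 and 109 at 12h, against 37.1 and 37.8 at 00h. Each of the 3 polymerases thus had a subunit gene whose 12h arrays lay above its 00h arrays. The 4 that did not pass, NRPB6A, NRPB6B, NRPD7 and NRPE7, were between 0.21 ± 0.22 and 0.44 ± 0.21. Among these 10 genes every difference was above 0.

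Of 16 genes of rRNA and tRNA processing and translation, 9 rose and 1 fell, with a median of 0.77. RBL, of pre-rRNA processing, had 79.2 and 119 at 12h, against 19 and 18.3 at 00h, and YAO, named in the same process, was at 1.31 ± 0.23. AT5G14520, listed as Pescadillo, which matures the large ribosomal subunit, had 252 and 339 at 12h, against 148 and 112 at 00h. DIM1B, an rRNA dimethylase, was at -0.67 ± 0.23 and lost its call without 12h B, 00h A or 00h B (limma adjusted p between 0.0895 and 0.162). Splicing and mRNA export proteins did not share a direction, with 3 higher and 3 lower among 18 tested. Their share of calls lay under the 39.5% of all named genes. ATU2AF35A, the small subunit of the factor that reads the 3′ splice site, had 28.3 and 46.4 at 12h, against 116 and 192 at 00h. Its copy U2AF35B had 86.2 and 125 at 12h, against 191 and 337 at 00h. Both small subunits fell, while the large subunit ATU2AF65A was at 0.26 ± 0.21 and did not pass.

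Pentatricopeptide proteins, RNA binders that edit and stabilise organelle transcripts, had 5 that rose and none that fell among 8 tested, with a median of 0.98 (0.59 over all 14 listed with no filter). PPR596, a mitochondrial member, had 192 and 192 at 12h, against 19.4 and 17.4 at 00h (2.60 ± 0.22 (SE), limma adjusted p = 1.64e-05). OTP81, a chloroplast editing factor, had 66.7 and 117 at 12h, against 7.4 and 1.3 at 00h. CRR22 was at 0.79 ± 0.28, with 12.7 and 36 at 12h, and lost its call without 12h B (limma adjusted p = 0.37) and without 00h B (0.0577).

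Chaperones, which fold new and damaged proteins, gave 10 that rose and 2 that fell among 15 tested, and the median was 0.84. Without 12h B 6 were higher. Cpn60beta2, a subunit of the chloroplast chaperonin that folds Rubisco, had 1195 and 1318 at 12h, against 93.6 and 76.4 at 00h (3.66 ± 0.21 (SE), limma adjusted p = 1.88e-06). Its relative Cpn60beta3 was near 0 at 00h, with 86.4 and 126 at 12h, against 4.0 and 2.6 at 00h. ATERDJ3B, a co-chaperone of the endoplasmic reticulum, had 733 and 565 at 12h, against 185 and 182 at 00h. The Fes1 family, which frees substrates from Hsp70, did not move as one, and another member besides those given here was called higher. Fes1C had 51.7 and 58.5 at 12h, against 287 and 342 at 00h (-2.21 ± 0.22 (SE)). Fes1A (0.08 ± 0.22) and Hsp70-2 (-0.07 ± 0.28) did not pass.

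Genes of dividing and growing cells that passed were mostly higher at 12h. Of 10 tested genes of histones and chromatin 5 rose and 2 fell, and without 12h B 2 were higher. The median was 0.58 over these 10 and 0.32 over all 18 listed with no filter. HTB2, a core histone H2B, had 257 and 293 at 12h, against 85.6 and 57.3 at 00h (1.75 ± 0.23 (SE)). HTB1, another H2B, had 244 and 228 at 12h, against 67.4 and 53.3 at 00h. HIS1-3, a linker histone known to respond to drought, had 10.0 and 14.3 at 12h, against 105 and 69.6 at 00h (-1.86 ± 0.25 (SE)). Both H2B genes and HIS1-3 thus took opposite directions, and near-identical copies of H2B may share signal. In both H2B genes and in HIS1-3 the 2 hours did not overlap. Mitosis genes gave 4 that rose and none that fell among 9 tested. 3xHMG-box2, which binds mitotic chromosomes, had 135 and 254 at 12h, against 27.6 and 27.8 at 00h, and BUB3.1, of the spindle checkpoint, had 102 and 103 at 12h, against 26.2 and 16.4 at 00h. Of the 3 Aurora kinases, AUR2 was at 1.24 ± 0.27, AUR1 at 0.81 ± 0.24 and AUR3 at -0.25 ± 0.22. AUR3 did not pass, and AUR1 lost its call without 12h B (limma adjusted p = 0.0819) and without 00h B (0.12).

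Tubulins, the subunits of microtubules, rose by up to 2.07 on the log2 scale, and 1 fell. Of 8 tested tubulins and actins 6 rose. TUA6 had 1731 and 1493 at 12h, against 387 and 354 at 00h (2.07 ± 0.24 (SE), limma adjusted p = 0.000105). TUB9 had 963 and 721 at 12h, against 209 and 193 at 00h. TUA1, an alpha-tubulin best known from pollen, had 84.7 and 92.6 at 12h, against 295 and 366 at 00h (-1.72 ± 0.21 (SE), limma adjusted p = 0.00016). The 12h arrays thus lay above the 00h arrays for TUA6 and below them for TUA1. ACT11, an actin, was at 0.97 ± 0.23 and TUB5 at 0.53 ± 0.24, and TUB5 did not pass.

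Over 5 lists of enzymes that loosen and build cell walls, 14 of 40 tested members rose, 3 fell and 23 did not pass. Their share of calls lay near the 39.5% of all named genes (20.9% higher, 18.6% lower). GH9 endoglucanases cut cellulose chains, and 4 of the 5 tested rose with none lower. Only 5 of 15 listed lay above the filter, and over all 15 with no filter the median was 0.29. GH9C2 had 562 and 368 at 12h, against 28.7 and 25.5 at 00h (3.45 ± 0.24 (SE), limma adjusted p = 4.75e-06). GH9B7 had 661 and 497 at 12h, against 198 and 149 at 00h. Expansins, which let walls stretch, gave 4 that rose and 1 that fell among 9 tested of 18. EXPB3 had 142 and 155 at 12h, against 22.9 and 21.7 at 00h, while EXPA8 had 32.2 and 26.7 at 12h, against 185 and 72.3 at 00h. The 00h arrays of EXPA8 lay far apart, and both were above both 12h arrays, yet its call, the only lower one of the list, ended with no filter. CSLA01, a mannan synthase, had 84.8 and 84.8 at 12h, against 14 and 13.2 at 00h. EXGT-A3, a xyloglucan transferase, had 217 and 279.5 at 12h, against 1396 and 1309 at 00h (-2.38 ± 0.23 (SE)), and was lower on both pairs of arrays. The other 2 tested members of its family were higher as deposited and neither passed with each array scaled to 1 median. Of 13 tested TBL genes of wall acetylation 1 rose (TBL26, 4.78 ± 0.22) and 1 fell (TBL37, -1.17 ± 0.21).

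**Figure D3:**
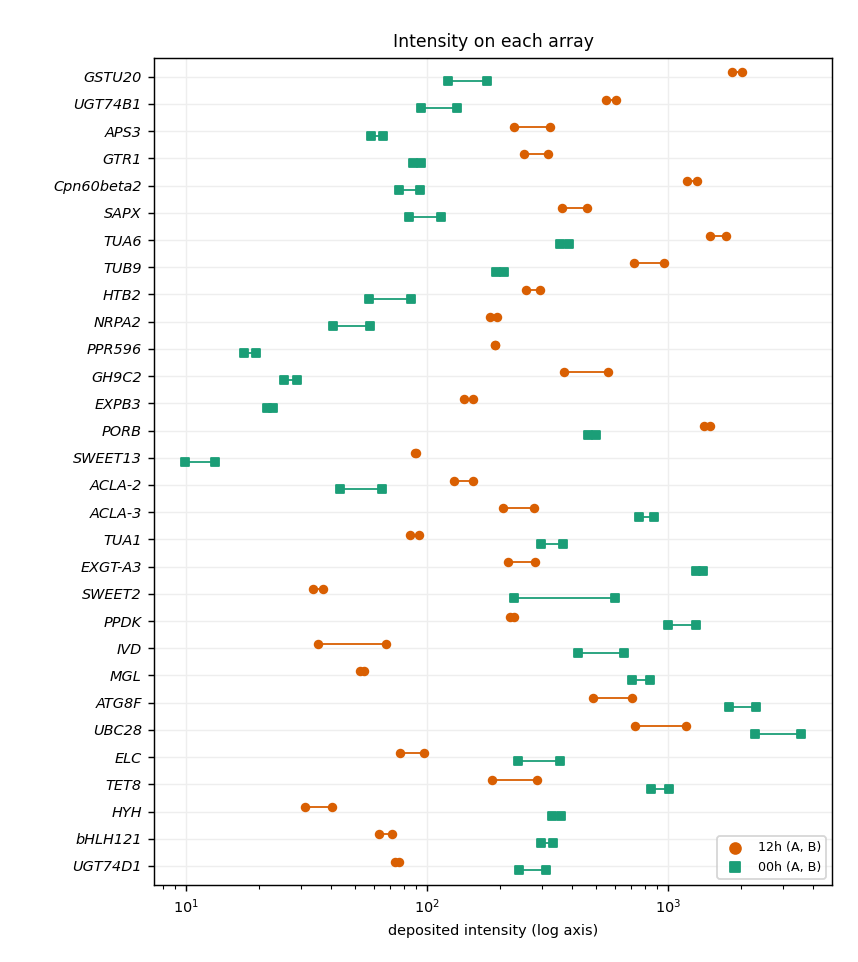
Deposited intensities on a log axis for 30 genes described in the text, with both 12h arrays as circles, drawn over both 00h arrays as squares, in each row and a line joining A and B; a value farther right is higher. The 30 genes were picked from members that passed. In all 30 the 2 hours do not overlap, as in 71.0% of all tested probe sets, and the 00h arrays of SWEET2 lie farthest apart.

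Chloroplast genes gave a mixed picture. Of 10 tested genes of tetrapyrrole and chlorophyll synthesis, 4 rose and 1 fell, and 3 rose and 3 fell with each array scaled to 1 median. PORB, which reduces protochlorophyllide in the light, had 1491 and 1405 at 12h, against 464 and 501 at 00h (1.55 ± 0.24 (SE), limma adjusted p = 0.000529). CHLI2, a magnesium chelatase subunit, had 299 and 271 at 12h, against 114 and 101 at 00h, and GSA1, of aminolevulinate synthesis, had 559.6 and 613 at 12h, against 290.0 and 227 at 00h. HEME2, also of tetrapyrrole synthesis, was at 0.65 ± 0.21, a call that ended without any one of the 4 arrays (differences between 0.63 and 0.67). The 3 enzymes showed no overlap between the hours. LIL3:2 was at -0.77 ± 0.27 and lost its call without 12h B (limma adjusted p = 0.232) and without 00h A (0.244), while its copy LIL3:1 was at 0.48 ± 0.24 and did not pass.

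Nuclear genes of the photosystems, antenna and NDH complex had 3 of 12 lower and none higher, with a median of 0.02, and between 0 and 1 of them was lower without 1 of the arrays. NdhS, of the NDH complex, had 511 and 499.6 at 12h, against 1244 and 865 at 00h, and lost its call without 00h A (limma adjusted p = 0.0616). Genes of the plastid's own chromosome had 7 of 43 photosynthesis genes and 3 of 26 others higher and none lower. ndhG had 467 and 318 at 12h, against 145 and 114 at 00h, and rpoB, of the plastid RNA polymerase, had 155 and 217 at 12h, against 43.5 and 27.6 at 00h (1.97 ± 0.26 (SE)). Several of the 7 photosynthesis genes rose mainly in the B pair, 1 of them by 2.63 there and by 0.55 in the A pair. Some that did not pass rose in the B pair only. Over all 69 tested plastid genes, 14.5% were higher and 0 lower (limma adjusted p under 0.05), a share of higher calls under the 20.9% of all named genes. The count of 7 was 4 without 12h B and 12 without 00h A. With each array scaled to 1 median it was 5, with 2 lower.

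Redox genes, which control oxidants and thiol switches, had 6 that rose and 4 that fell among 22 tested, and 4 that rose and 6 that fell with each array scaled to 1 median. Over all named genes 20.9% were higher and 18.6% lower with the values as deposited. SAPX, an ascorbate peroxidase of stroma and mitochondria, had 364 and 462 at 12h, against 83.6 and 114 at 00h (1.90 ± 0.23 (SE), limma adjusted p = 0.000132). Methionine sulfoxide reductases, which repair oxidised methionine, took both directions. MSRB6 had 252 and 206 at 12h, against 59.1 and 38.6 at 00h, and MSRB5 had 495 and 642 at 12h, against 233 and 188 at 00h. MSRB3 was lower (-1.04 ± 0.25), and MSRA5 (0.15 ± 0.23) and MSRB9 (0.09 ± 0.32) did not pass. GRXC1, a glutaredoxin, had 279.7 and 194 at 12h, against 631 and 623 at 00h, and GR1, glutathione reductase, had 173 and 245 at 12h, against 414 and 516 at 00h. Their relatives GRXC2 (0.71 ± 0.32) and GR (-0.15 ± 0.21) did not pass. Glutathione transferases, which attach glutathione to other molecules, took both directions, with GSTU27 at 1.13 ± 0.22, GSTU16 at -1.78 ± 0.21 and GSTU18 at -1.48 ± 0.20.

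Flavonoid and anthocyanin genes, whose pigments gather in sugar-rich leaves, had 8 listed members, 6 of them tested, all 6 of which rose, with a median of 2.60 (2.27 over all 8). UGT78D1, a flavonol rhamnosyltransferase, had 255 and 364 at 12h, against 41.5 and 63.4 at 00h, and UGT78D2, of the same branch, had 316 and 514 at 12h, against 158 and 164 at 00h. AT5MAT, an anthocyanin malonyltransferase, was near 0 at 00h, with 72 and 98 at 12h, against 3.9 and 5.2 at 00h. The other UGT glycosyltransferases, which attach sugar to many small molecules, had 6 that rose and 7 that fell among 25 tested of 47. Over all named genes the shares were 20.9% higher and 18.6% lower. UGT74D1, which glucosylates auxins, had 73.5 and 76.1 at 12h, against 310.3 and 239 at 00h. UGT76C2, which inactivates cytokinins, had 19.4 and 20.4 at 12h, against 87.3 and 64.4 at 00h. In both genes the hours did not overlap, while UGT76C1 (-0.32 ± 0.22), which also acts on cytokinins, did not pass. GT72B1, which conjugates monolignols and xenobiotics, had 314 and 248 at 12h, against 81.4 and 78.1 at 00h. Beta-glucosidases, which take such sugars off, had 5 that rose and 2 that fell among 10 tested of 21, and 4 and 3 with no filter. Their median was 0.72 over the 10 and 0.14 over all 21. BGLU44 had 1135 and 1219 at 12h, against 236 and 282 at 00h.

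Many genes of the hormone lists lay under the filter on dim probe sets. Of 16 listed auxin genes 4 were tested and 3 fell, with a median of -0.80 over the 4 and -0.02 over all 16. Of 12 listed jasmonate genes 7 were tested, 4 fell and 1 rose, with a median of -0.85 over the 7 and -0.32 over all 12. Of 6 listed brassinosteroid genes 3 were tested, with BIM1, of brassinosteroid signalling, higher (1.24 ± 0.26) and EXO lower (-0.77 ± 0.22), and EXO lost its call without 12h B (0.0589) and without 00h B (0.141). Of 8 listed cytokinin genes 4 were tested and UGT76C2 was the one that fell. Among the auxin genes WES1, which conjugates auxin to amino acids, had 20.0 and 20.7 at 12h, against 83.4 and 107 at 00h. Its relative GH3.3 (-0.71 ± 0.24) lost its call without 12h A (limma adjusted p = 0.172) and without 00h B (0.186). PDF1.4, a defensin gene, had 9.1 and 18.1 at 12h, against 266 and 239 at 00h (-3.20 ± 0.25 (SE)). PDF1.2, the classic jasmonate defensin, had 169 and 126 at 12h, against 217 and 1116 at 00h, a difference of -0.33 in the A pair and -3.0 in the B pair. Its signal was high on 00h B, and the call ended without that array (limma adjusted p = 0.201). Its near copy PDF1.2b, whose probes may share signal with it, had 366 and 131 at 12h, against 580.1 and 1639.8 at 00h. OPCL1, of jasmonate synthesis, was higher (1.39 ± 0.26). GID1C, a gibberellin receptor, was at -0.87 ± 0.28 and lost its call without 12h A (limma adjusted p = 0.122) and without 00h B (0.185), while GID1A (-0.06 ± 0.21) and GID1B (-0.59 ± 0.23) did not pass. Peptide signals took both directions, with RALFL34 at 907 and 711 at 12h, against 252 and 235 at 00h, and RALFL32 at 78.8 and 67.6 at 12h, against 237 and 212 at 00h.

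Transcription factors on the lists that passed were mostly lower at 12h. Of 6 tested WRKY factors 3 fell and none rose, and WRKY22 had 22.2 and 14.8 at 12h, against 51.9 and 61 at 00h. STZ, which touch and wounding induce, was also lower, with 44.1 and 23.7 at 12h, against 134 and 147 at 00h and 171 at 16h, and the part of handling was not tested. Calmodulin-like proteins had 2 that fell among 4 tested, CML30 at -1.77 ± 0.23 and CML41 at -1.26 ± 0.26. WRKY6, known from ageing leaves, had 10.7 and 4.0 at 12h, against 50.6 and 114 at 00h. Of 12 tested bZIP factors 3 fell, and 1 did without 12h B or without 00h B. HYH, a partner of the light factor HY5, had 31.2 and 40.2 at 12h, against 329.6 and 360.3 at 00h (-2.81 ± 0.23 (SE), limma adjusted p = 1.21e-05). Of the bHLH factors that steer the iron response, bHLH121 had 71.3 and 63.2 at 12h, against 334 and 296 at 00h, and bHLH104 had 152 and 160.4 at 12h, against 335 and 338 at 00h. bHLH115, of the same group, went the other way (0.75 ± 0.21), and its call ended without 12h B (0.0801) and without 00h B (0.0553). PYE (-0.23 ± 0.23), ILR3 (-0.19 ± 0.25) and bHLH34 (0.50 ± 0.24) did not pass. Of the genes tested for iron and other metals, MTP11, a manganese carrier, had 174 and 208 at 12h, against 557 and 466 at 00h. GI, an evening gene of the clock, was the 1 member that rose among 9 tested genes of clock and light signalling, with 151 and 185 at 12h, against 9.2 and 12 at 00h. AFR, which acts in far-red light signalling, fell beside HYH, with 22.6 and 19 at 12h, against 130.1 and 119 at 00h.

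Genes of membrane traffic and scaffolds had calls in both directions in each list. Of 13 tested exocyst and SNARE genes 2 rose and 2 fell, and of 10 tested PRA1 genes 1 rose and 2 fell. In these lists the share of calls lay under the 39.5% of all named genes (20.9% higher, 18.6% lower). Among tetraspanins and IQD genes it lay above. KEU, which guides membrane fusion at the cell plate, had 76 and 108 at 12h, against 236 and 226 at 00h, and SEC5A, an exocyst subunit, had 211 and 213 at 12h, against 116 and 119 at 00h. Tetraspanins, membrane proteins that group others, split in the same way. TET8, known from extracellular vesicles, had 286 and 186 at 12h, against 846 and 1005 at 00h (-1.93 ± 0.25 (SE), limma adjusted p = 0.000199), while TET7 had 189 and 179 at 12h, against 68.9 and 77.8 at 00h. PRA1.B4, of a family tied to small GTPases, was near 0 at 00h, with 59 and 77.4 at 12h, against 1.5 and 5.0 at 00h, and PRA1.F1 had 15.8 and 19.8 at 12h, against 57.3 and 58.9 at 00h. In each of these pairs one gene was higher and the other lower on both 12h arrays. IQD proteins, calmodulin-binding scaffolds of microtubules, had 5 that rose and 1 that fell among 8, with 3 higher without 12h B, without 00h A or without 00h B. Their median was 0.65 over these 8 and 0.34 over all 15 listed with no filter. IQD30 had 52.6 and 70.9 at 12h, against 18.1 and 15.9 at 00h, and IQD31 had 1.18 ± 0.26.

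Several lists gave few calls. Among 4 tested Calvin-Benson and photorespiration genes 0 passed limma's adjusted test and 0 reached an unadjusted p under 0.05, with differences between -0.79 ± 0.44 for RCA and -0.25 ± 0.33 for SBPASE, although all 4 were below 0. This depended on the processing. With quantile normalization 3 of the 4 were lower, and 2 were with the array letter or the class of hybridisation controls as a block. DNA replication and repair had 2 of 8 tested higher, POLA3, a primase subunit, with 81 and 80.9 at 12h, against 36.3 and 35.9 at 00h, and POLD3, whose call ended without any one of the 4 arrays. Of 18 listed DNA replication and repair genes 8 lay above the filter, and with no filter 4 were higher. Membrane lipid synthesis had 1 of 9 higher and 1 lower. GPDHC1, which makes glycerol 3-phosphate, had 97.8 and 74 at 12h, against 24.7 and 29.5 at 00h, and AAPT2, which finishes phospholipids, had 118 and 124 at 12h, against 264 and 256 at 00h. These shares lay at or under the 39.5% of all named genes.

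Cold and dehydration genes had 4 of 10 tested higher and 1 lower, 2 higher and 0 lower with no filter. LTI30, a dehydrin, had 152 and 49.5 at 12h, against 22.8 and 14.1 at 00h, and SRC2, known from cold, had 366 and 196 at 12h, against 836 and 577 at 00h. The LTI30 arrays of 12h lay far apart, and in both genes the hours did not overlap. Of 10 tested CYP71B cytochromes, oxidases of many small molecules, 3 fell, 1 with no filter or without 00h B and 5 with each array scaled to 1 median. Over all 19 listed with no filter their median was -0.03, against -0.45 over the 10. CYP71B23 had 105 and 72.2 at 12h, against 254 and 406 at 00h (-1.71 ± 0.27 (SE)). Of 4 tested plant U-box ubiquitin ligases 2 fell, PUB23 at -0.78 ± 0.22 and PUB24 at -0.87 ± 0.24. Of 13 tested genes of photosystem assembly 2 fell, PSB27 at -0.92 ± 0.33 and LPA2 at -0.85 ± 0.22. Of 5 tested mitochondrial genes 1 rose, nad4 at 0.86 ± 0.27, and of 5 tested glutamate receptor and CHX genes 1 rose, GLR1.4 at 0.81 ± 0.27. Of 5 tested TRM genes, TRM15 was at 1.12 ± 0.32 and TRM26 at -0.97 ± 0.23. STOMAGEN, which promotes stomata, was at -0.80 ± 0.26. Apart from LTI30, SRC2, CYP71B23 and TRM26, the members given here as called lost the call without at least 1 of the 4 arrays.

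The 4 hours with 1 array each place the groups in the day, as medians relative to the 00h mean with no test. Glucosinolate genes stood at 1.85 at 04h, 1.70 at 08h, 0.85 at 16h and 0.42 at 20h, beside 1.73 and 1.96 on the 12h arrays. RNA polymerase subunits stood at 0.82, 0.91, 0.26 and -0.08 at the same 4 hours, beside 0.90 and 0.99 at 12h. Amino acid breakdown stood at -1.99 at 04h, -1.48 at 08h, -0.09 at 16h and 0.43 at 20h, beside -1.03 and -1.36 at 12h. In these 3 groups the arrays of 04h and 08h lay nearer to 12h than to 00h, and amino acid breakdown at 04h was lower than on either 12h array. Those of 16h and 20h lay nearer to 00h, except that glucosinolate genes at 16h stood about midway. Not every group took this course, and expansins stood at 0.89 at 16h, beside 0.58 and 0.48 at 12h. Genes within a group followed courses of their own. SWEET13 had 178 at 04h, 160.3 at 08h, 15.6 at 16h and 12.4 at 20h, so its highest array was that of 04h. GI had 70.4 at 04h, 372 at 08h, 7.8 at 16h and 4.6 at 20h, and its highest array was that of 08h.

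**Figure D4:**
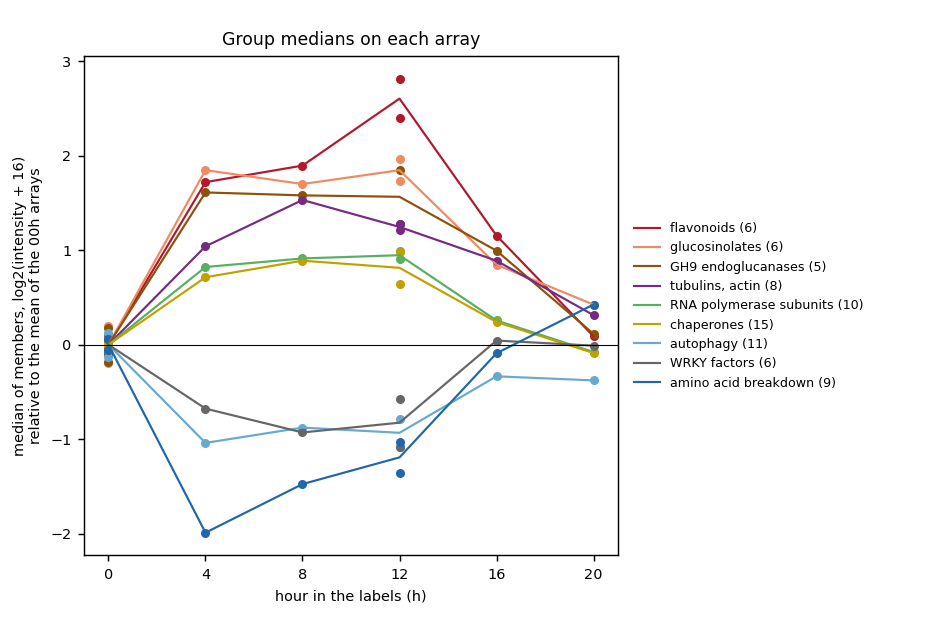
Medians over the tested members of 9 groups (number in brackets) on each array, as log2(intensity + 16) relative to each gene's mean of the 00h arrays, against the hour in the labels; both arrays are drawn at 0 and 12 h, where the line passes through their mean. Flavonoid, glucosinolate, GH9, tubulin and actin, RNA polymerase and chaperone genes stay above 0 from 04h to 16h. Amino acid breakdown is lowest at 04h.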

How the data were processed

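Transcripts of whole pgm rosettes were measured on 8 one-colour Affymetrix arrays, hybridised with biotin-labelled cRNA. The deposited table gives each probe set 1 linear intensity per array. MAS5, with no version, is named in the submitters' processing notes, and other steps are not given in the sources used here. The 2% trimmed mean of the deposited intensities is 100 on every array, so a change of total mRNA with the hour cannot be seen. The number of arrays limits the precision.

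From the 22810 probe sets 64 controls were left out, log2(intensity + 16) was taken, and the 40% with the lowest mean over the 8 arrays were left out, which left 13647. All 8 arrays entered 1 limma model of the hour (version 3.58.1 under R 4.3.3, moderated with an intensity trend), whose 2 residual degrees of freedom stem from the A and B arrays of 12h and 00h, and p-values were adjusted by Benjamini-Hochberg. The labels do not say that A and B are separate plants, so p-values measure only how these arrays vary, possibly for technical reasons.

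The platform's table ties 13513 probe sets to a single gene, 503 to more and leaves 8730 unnamed. Only the first kind is named. Of these, 13436 matched RefSeq (TAIR10.1), which supplied newer symbols. A gene with several probe sets stands with its brightest tested one.

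The members and lists were chosen with earlier results of these data known. Per list with at least 3 tested members, the genes named are up to 4 called members with the largest statistics in the leading direction and up to 2 in the other, and any member of lists of up to 8. The exceptions are MCCB, ETFALPHA, ETFBETA, ATG8D, ATG8G, ATG3, GAPC2, TMT1, SWEET11, NRPB6A, NRPB6B, NRPD7, NRPE7, ATU2AF65A, Fes1A, Hsp70-2, AUR3, LIL3:1, MSRA5, MSRB3, MSRB9, GRXC2, GR and the marker STZ, named after their values were seen, mostly as relatives or partners that did not pass. The results of 1 list are not reported here. Promoters and other sequences are not analysed here.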

Additional observations from a re-analysis of the deposited data

How the results depend on the processing

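The count of 5528 probe sets that differed between 12h and 00h lay between 4214 (lowest 60% left out) and 6917 under the alternatives tried, and between 4631 and 5071 when 1 of the 4 arrays was left out. For genes higher at 12h the range without 1 array was 2457 to 2788, and for genes lower at 12h it was 2103 to 2332. Members of the functional groups that passed numbered 280, between 218 and 345 under the alternatives and between 232 and 259 without 1 array. In all, 3474 probe sets passed in the full fit and in each of the 4 fits without 1 array. Of 240 named genes that passed, 71 lost the call without at least 1 array, 57 with no filter, 21 with each array scaled to 1 median and 8 with quantile normalization, and none turned its direction.

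Same-lettered arrays deviated together (r = 0.30), but with 2 pairs and no label that ties the letters to plants they are not taken as pairs. With the letter as a replicate block 6917 probe sets passed, 3740 higher and 3177 lower, and 343 list members passed. Over the 12h and 00h arrays the letter coincides with the class of hybridisation controls, and with that class as a block 6913 probe sets and 345 members passed. No call of a named gene was lost under either block.

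The leading direction of some lists turned. Of the citric acid cycle genes 2 were higher at 12h, but 0 with each array scaled to 1 median, 1 without 12h A and 0 without 00h B. Of photosystem assembly genes 2 were lower, but 0 without 12h A. Of xyloglucan transferases 2 were higher, but 0 with scaling to 1 median, without 12h A or without 00h B. Of UGTs 7 were lower, but 3 with the lowest 60% left out, and of jasmonate genes 4 were lower, but 1 with no filter. Glutamate receptor and CHX genes had 1 call, higher, and 0 with no filter. Redox genes had 6 higher and 4 with scaling to 1 median. Of PRA1 genes 2 were lower and 1 higher, against 2 lower and 3 higher under either block, and 1 was lower without 00h B. The causes were not tested beyond what each setting removes. Differences of dim probe sets follow the number added before the logarithm.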

Other observations

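Calls were spread evenly over the nuclear chromosomes. The share of tested named genes higher at 12h was between 20.6% on chromosome 4 and 21.7% on chromosome 3, and the share lower between 17.8% on chromosome 5 and 19.8% on chromosome 1.

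Genes lower at 12h were shorter by the RefSeq annotation, with a median length of 2160 bases (1345 genes), than genes higher at 12h, with 2372 bases (1510 genes), and genes that did not pass, with 2428 bases (4328 genes). Lengths span the gene with its introns, genes are not independent replicates, and no test was made.

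Of 69 genes with more than 1 tested probe set, 13 had all their probe sets called in one direction and 1 had calls in opposite directions.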
